A study of Sus scrofa with 15 samples.

Results

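The transcripts examined here encode factors of ribosome biogenesis and the nucleolus, measured by RNA-seq in pig donor fibroblasts and in cloned embryos made by somatic cell nuclear transfer (SCNT). The 56 genes, of 43294 features in the table (28224 known genes and 15070 assembled transcripts without a gene name), were chosen by symbol. The symbols begin with UTP, RRP, NOP, NOL or EXOSC and a digit, or are BMS1, DKC1, FBL, NCL, NPM1, GAR1, NHP2, BOP1, PES1, WDR12, UBTF or RRN3. By their known roles they fell into 8 groups, namely 20 genes of small subunit processing, 13 of large subunit maturation, 10 subunits of the RNA exosome, 4 box H/ACA and 3 box C/D proteins, 2 RNA polymerase I factors, 2 nucleolar scaffold proteins, and *NOL4* and *NOL4L*, which match by name only.

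The 5 groups of 3 libraries were compared. PFF were primary porcine fetal fibroblasts at passage 2 to 5, which served as nuclear donors. SCNT4c and SCNT8c were untreated cloned embryos at the 4-cell and 8-cell stage, and every embryo library was a pool of 30 embryos. SCNT4c-KG were 4-cell cloned embryos injected with *KDM4A* mRNA, which encodes a demethylase of H3K9me3, at 5 h after activation and cultured with GSK126, which inhibits EZH2, the writer of H3K27me3. SCNT4c-TDG were 4-cell cloned embryos whose donor PFF carried a doxycycline-inducible vector for *TDG*, a thymine DNA glycosylase, were selected with puromycin and were induced with doxycycline. No library of embryos from vector-carrying cells without induction, or given doxycycline alone, was analysed here, so the transgene, the selection and the drug cannot be told apart. Nor was a library of embryos given a control injection, *KDM4A* alone or GSK126 alone. The injection, *KDM4A* and GSK126 thus cannot be told apart in SCNT4c-KG. PFF RNA was extracted with TRIzol and embryo RNA with a PicoPure kit, and all cDNA was amplified with SMARTer chemistry. The labels name no batch and do not say that pools came from separate days, so p-values measure only the spread between these samples. The SCNT4c-TDG samples were registered in a later block than all others, and whether they were prepared apart is not stated. For this group, treatment and time of preparation thus cannot be told apart. The SCNT4c libraries, which the labels number in conflicting ways, are called a, b and c. The labels also conflict on the groups, since the descriptions of the SCNT4c-KG samples carry the names of the untreated 4-cell columns, and columns were assigned here by the sample titles, which match the column names.

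Ribosomes are built in the nucleolus, where RNA polymerase I transcribes the rRNA precursor. Box C/D and box H/ACA ribonucleoproteins, guided by small nucleolar RNAs, methylate riboses and isomerize uridines in it. The small subunit processome folds and cleaves the precursor, the RNA exosome trims its spacer ends, and a separate set of factors matures the large subunit. In mammalian embryos the nucleolus forms anew around the time of embryonic genome activation. The main wave of this activation falls at the 4-cell stage in fertilized pig embryos. The paper cites reports that the transition from maternal to embryonic control comes later in cloned pig embryos, at the 8-cell stage. In its own clustering, SCNT8c but not SCNT4c lay close to fertilized 4-cell embryos.

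Upstream sequences are printed first for the 4 box H/ACA proteins, because this complex separated the treated groups from each other in the values that follow. Each line gives the 250 bases before the RefSeq transcription start on Sscrofa11.1, 5′ to 3′ on the strand of the gene, with motif matches in capitals. *DKC1* (gene ID 100216430, plus strand) encodes the pseudouridine synthase, *NHP2* (100526157, plus strand) and *NOP10* (100156164, plus strand) its core partners, and *GAR1* (100516629, minus strand) the fourth protein. The windows are chrX:125218678-125218927, chr2:80223189-80223438, chr7:80160774-80161023 and chr8:112414278-112414527, in that order.

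DKC1: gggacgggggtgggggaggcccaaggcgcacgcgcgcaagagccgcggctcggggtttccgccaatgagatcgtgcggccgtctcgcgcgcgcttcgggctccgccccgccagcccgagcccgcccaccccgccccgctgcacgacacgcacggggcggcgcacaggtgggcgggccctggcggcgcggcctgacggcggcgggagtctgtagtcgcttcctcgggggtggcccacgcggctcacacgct
NHP2: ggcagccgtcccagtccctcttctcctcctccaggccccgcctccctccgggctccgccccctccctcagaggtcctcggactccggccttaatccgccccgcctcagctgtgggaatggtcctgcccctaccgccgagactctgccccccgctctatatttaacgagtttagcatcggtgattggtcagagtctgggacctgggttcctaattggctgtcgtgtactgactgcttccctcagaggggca
NOP10: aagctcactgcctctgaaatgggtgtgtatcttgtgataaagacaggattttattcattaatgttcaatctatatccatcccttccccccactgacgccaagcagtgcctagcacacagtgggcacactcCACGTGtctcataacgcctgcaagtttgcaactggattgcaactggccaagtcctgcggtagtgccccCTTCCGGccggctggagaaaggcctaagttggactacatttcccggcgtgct
GAR1: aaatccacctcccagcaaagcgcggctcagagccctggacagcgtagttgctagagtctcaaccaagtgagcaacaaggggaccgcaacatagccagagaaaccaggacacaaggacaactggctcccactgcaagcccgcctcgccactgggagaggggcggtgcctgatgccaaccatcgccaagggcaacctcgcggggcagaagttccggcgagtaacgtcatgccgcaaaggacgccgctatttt

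The capitals mark CACGTG, the E-box bound by MYC and related factors, and CCGGAAG, a core of ETS family sites, each searched on both strands. *NOP10* held an E-box beginning 120 bases and an ETS core, read on the opposite strand, beginning 52 bases before the start. In windows of 300 bases (250 before and 50 after the start), CACGTG was present in 6 of 56 genes (10.7%) and in 7.92% of all 19545 promoters. CCGGAAG was present in 17 of 56 genes (30.4%), against 11% of all promoters, including *NHP2* within the 50 bases after its start. It was also present in *UBTF*, *RRN3*, *NOP9*, *NOP2*, *NOP16*, *RRP15* and *UTP23*. The upstream windows of the 56 genes had a median GC content of 60.6%, against 57.6% for all genes, and the part of base composition in these shares was not tested. Of 3 further factors, the motif of YY1 was found in 2 of the 56 genes (3.57%, against 0.727% of all promoters), that of NRF1 in 1 (1.79%, against 1.13%) and that of ZBTB33 in 2 (3.57%, against 0.537%).

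The deposited values are normalized signals, and every value was a whole multiple of the value of 1 read. Recovered reads numbered 22224949 to 22868038 in PFF, 20460653 to 22530486 in SCNT4c, 18083559 to 19549670 in SCNT8c, 12354649 to 15390472 in SCNT4c-KG and 17757929 to 19564459 in SCNT4c-TDG. *TDG* had values of 56925, 59944 and 49857 in SCNT4c-TDG and 1659.5, 939 and 2541 in SCNT4c. *KDM4A* had values of 1437, 1476 and 1429 in SCNT4c-KG and 313, 136 and 134 in SCNT4c. Each was also above SCNT4c in the other treated group, *TDG* with 4474, 3886 and 4738 in SCNT4c-KG and *KDM4A* with 852, 555 and 918 in SCNT4c-TDG. Among the embryo groups, *TDG* and *KDM4A* were thus highest in the columns that the titles assign to each treatment, and for *KDM4A* this is not the assignment that the descriptions would give. The summed value of 10 fibroblast markers was 3853890 to 4085740 in PFF, 4243 to 5457 in SCNT4c, 2637 to 3865 in SCNT4c-KG, 1785 to 2339 in SCNT4c-TDG and 2155 to 2438 in SCNT8c, with 7 of 10 at a mean of at least 10 in each embryo group. A list of 10 cumulus cell markers summed to 661 to 701 in PFF, 1693 to 2237 in SCNT4c, 1176 to 1396 in SCNT4c-KG, 667 to 856 in SCNT4c-TDG and 1659 to 2294 in SCNT8c, with 4 or 5 of 10 at a mean of at least 10 and *AMH*, *INHBA* and *PTX3* listed at 0 in all embryo groups. The list of 10 oocyte and early embryo genes summed to 72446 to 91879 in SCNT4c, 51541 to 78951 in SCNT4c-KG, 48183 to 53990 in SCNT4c-TDG and 38222 to 49118 in SCNT8c, with *BMP15* and *GDF9* at 0. Mitochondrial reads made up 0.909% to 1.39% of the SCNT4c libraries, 1.76% to 2.47% in SCNT4c-KG, 8.26% to 9.42% in SCNT4c-TDG and 1.49% to 2.30% in SCNT8c. The fibroblast sum was thus lower, and the mitochondrial share higher, in every library of the 3 other embryo groups than in SCNT4c, and the part of these differences in the results below was not tested.

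Of the 56 genes, 42 had a mean of at least 10 in a fit and were tested, 41 of them in the embryo fit and 39 in the fit of SCNT4c and PFF. Among the 14 others, 6 were listed at 0 in every library, namely *FBL*, *EXOSC7*, *RRP7A*, *UTP3*, *UTP15* and *UTP18*, and 5 more (*NOP53*, *BMS1*, *NOL10*, *NOP14* and *UTP4*) had at most 3 reads in any library. *FBL* encodes fibrillarin, the methyltransferase of the box C/D complex, so these entries are given only as listed at 0 and no level is drawn from them. All 14 untested genes shared their locus in the table with at least 1 assembled transcript. In contrast, the 19 genes without an assembled transcript at the locus were all tested, and the lowest of their maxima was 298. The highest value of a gene had a median of 8114 in these 19 genes and of 87.8 in the 37 genes with assembled transcripts. At the locus of *FBL*, which also holds 1 other known gene, the assembled transcripts summed to group means of 54.9 in PFF, 436 in SCNT4c, 509 in SCNT8c, 284 in SCNT4c-KG and 179 in SCNT4c-TDG. The exons of 10 tested genes overlap those of another annotated gene, namely *NHP2* (*RMND5B*), *NOP56* (*IDH3B*), *NPM1* (*LOC102158455*), *NOP16* (*ARL10*), *NOP9* (*CIDEB*), *UTP20* (*ARL1*), *WDR12* (*CARF*), *EXOSC3* (*TRMT10B*), *EXOSC4* (*LOC102163278*) and *EXOSC8* (*SUPT20H*), and without a stated strand setting reads of both genes cannot be told apart. Whether reads of a gene were assigned to these transcripts was not tested. This limit holds for all 37 genes with an assembled transcript and is not repeated at each value below. Among them are *EXOSC2*, *EXOSC5*, *EXOSC9*, *NOP9* and *NOL12*, which had low values in SCNT4c.

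**Figure D1:**
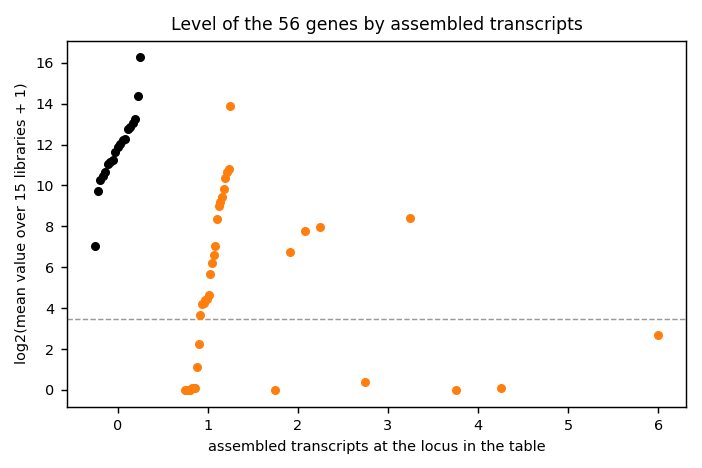
Each point is 1 of the 56 genes, with the number of assembled transcripts at its locus on the x axis and log2 of its mean normalized value over 15 libraries plus 1 on the y axis. The dashed line marks the minimum mean of 10 in log2(value + 1). The 19 genes without an assembled transcript (black) all lie above it, while 14 of the genes with one (orange) were not tested in either fit.

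These transcripts took up a larger share of the embryo libraries than of the donor cell libraries. The 56 genes made up 0.216% to 0.226% of the recovered reads in PFF, 0.987% to 1.32% in SCNT4c, 1.21% to 1.80% in SCNT8c, 1.33% to 1.51% in SCNT4c-KG and 0.845% to 0.866% in SCNT4c-TDG. *NPM1*, which encodes the nucleolar chaperone nucleophosmin, alone gave 50.9% to 56.3% of these reads in SCNT4c but 26.5% to 29.3% in SCNT4c-KG. Without *NPM1* the share was 0.471% to 0.595% in SCNT4c, 0.592% to 0.933% in SCNT8c, 0.939% to 1.11% in SCNT4c-KG and 0.487% to 0.540% in SCNT4c-TDG. All SCNT4c-KG libraries lay above all SCNT4c libraries in this share, while SCNT4c-TDG overlapped with SCNT4c. In bulk libraries, more RNA per cell and more cells with the RNA cannot be told apart, nor can stored and newly made transcripts.

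The order of the levels per kb of exon was led by *NPM1* in every group, with 7772 per kb in PFF and 43453 in SCNT4c. It was followed in SCNT4c by *UTP11* with 13784, a small subunit processome protein, and by *NOP56* with 7318, a core protein of the box C/D complex. In SCNT4c-KG the second place was taken by *NOP10*, with 23508 per kb against 3004 in SCNT4c. *UTP11* moved to place 8 there. The spread between libraries differed among groups. The median SD of log2(value + 1) over the 41 genes was 0.094 in PFF, 0.51 in SCNT4c, 0.50 in SCNT8c, 0.29 in SCNT4c-KG and 0.23 in SCNT4c-TDG. SCNT8c replicate 3 lay more than 2-fold below both other SCNT8c libraries in 10 of the 41 genes, and SCNT4c library a lay more than 2-fold from both others in 11, below in 6 and above in 5.

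**Figure D2:**
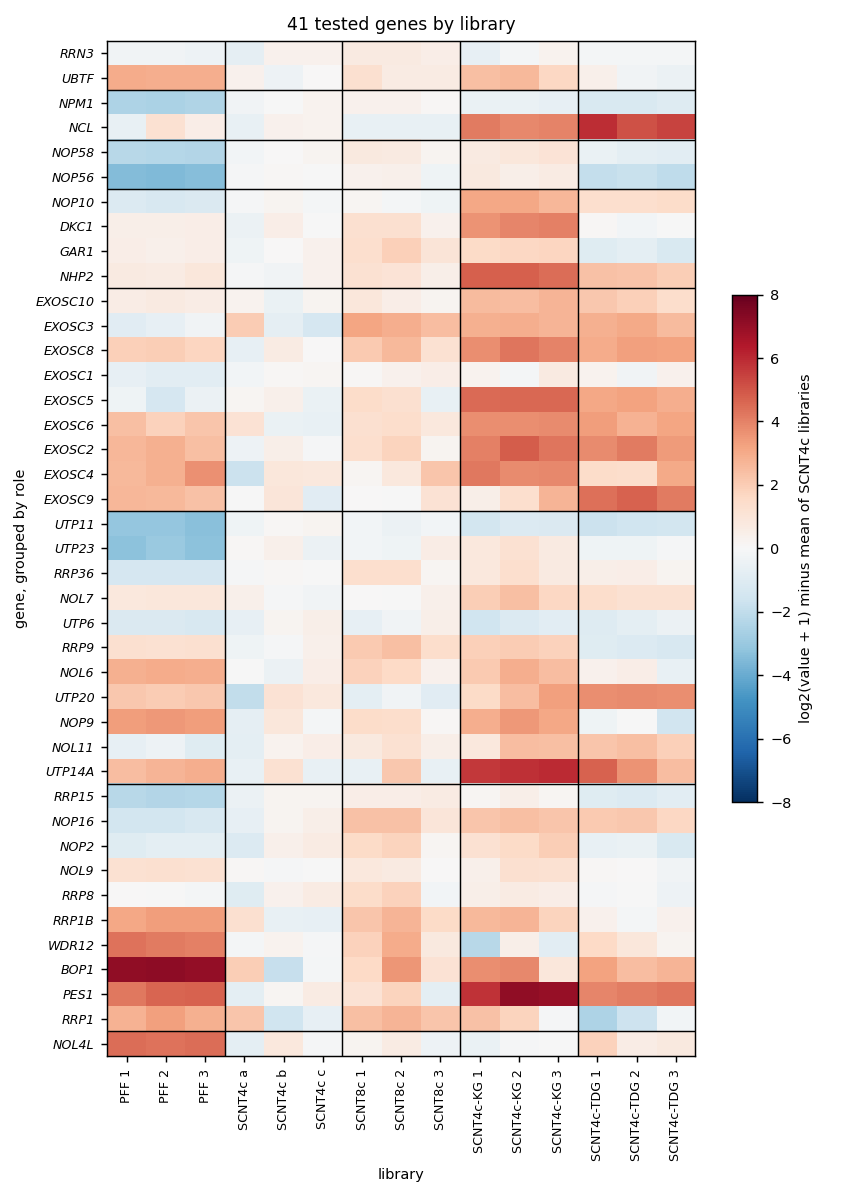
Rows are the 41 genes tested in the embryo fit, grouped by role, and columns are the 15 libraries, with color giving log2(value + 1) minus the mean of the 3 SCNT4c libraries. Red fills most rows of SCNT4c-KG, the box H/ACA rows are less red in SCNT4c-TDG than in SCNT4c-KG, and SCNT8c replicate 3 is paler than replicates 1 and 2 in many rows.

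The first comparison asked how these genes differed in SCNT4c-KG embryos from untreated embryos of the same stage. Most of them were higher. Of 41 genes tested, 25 rose and 2 fell, with 14 not called (limma, Benjamini-Hochberg adjusted p under 0.05 and a fold above 2). Among all 18942 features tested, 17.6% rose and 19.6% fell (37.2% in either direction). The median log2 difference was 2.01 over the 41 genes and -0.30 over all features. The SCNT4c-KG libraries all lay above the SCNT4c libraries in 29 genes and all below in 3, where 24.3% and 29.6% of all features did. Of the genes without an assembled transcript at the locus, 11 of 19 rose and 1 fell. Of the 25 rises, 21 were called under every alternative in which the gene was fitted, the others being *BOP1*, *NOL11*, *NOP2* and *UTP20*. *EXOSC4*, *EXOSC9*, *NCL*, *PES1* and *UTP14A* had means under 10 in SCNT4c and SCNT8c and were thus tested only because of their values in treated embryos. Without these 5 genes, 21 of 36 rose and 2 fell.

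All 4 box H/ACA genes rose. *DKC1* had values of 683, 1363 and 927 in the SCNT4c libraries against 11400.3, 14119 and 15512 in SCNT4c-KG, a log2 difference of 3.83 ± 0.33 (SE, n = 3 per group; limma adjusted p = 5.54e-07). The groups were far apart, with the lowest SCNT4c-KG library above the highest SCNT4c library. *NHP2* had values of 176, 154 and 231 in the SCNT4c libraries against 5062, 5145 and 4145 in SCNT4c-KG, a log2 difference of 4.68 ± 0.32 and the largest of the 4. *NOP10* rose from 2742, 3467 and 2622 to 25200.2, 25406 and 18507, by 2.96 ± 0.24. *GAR1* differed least, with 622, 808 and 1031 in the SCNT4c libraries against 2282, 2571 and 2702 in SCNT4c-KG, a log2 difference of 1.64 ± 0.31. The 4 genes were called under all 4 other scalings or count models tried.

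The box C/D partners were already abundant in SCNT4c and did not pass the fold limit. *NOP56* had values of 17890.1, 20309 and 18154 in the SCNT4c libraries against 32861, 26224 and 29525 in SCNT4c-KG, and its log2 difference was 0.65 ± 0.24 (limma adjusted p = 0.0456). *NOP58* had values of 17447, 20701 and 23200.1 and 33324, 38147 and 42578, a log2 difference of 0.90 ± 0.23 (limma adjusted p = 0.00689). In both genes the SCNT4c-KG libraries all lay above the SCNT4c libraries, and DESeq2 called *NOP58* higher, with a log2 difference of 1.04.

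Of the 9 tested exosome subunits, 7 rose and none fell. Among these 7, only *EXOSC6* and *EXOSC10* had neither an assembled transcript at the locus nor exons overlapping another gene. *EXOSC10*, the nuclear exonuclease attached to the exosome core, had values of 1018, 581 and 981 in the SCNT4c libraries against 4779.7, 4711 and 5527 in SCNT4c-KG, a log2 difference of 2.58 ± 0.31 (limma adjusted p = 1.99e-05). *EXOSC5*, a subunit of the barrel, had 49.7, 58.5 and 29.9 in the SCNT4c libraries against 1029, 1117 and 1117 in SCNT4c-KG, and rose by 4.58 ± 0.51. *EXOSC2*, a cap subunit, had 7.1, 14 and 9.13 and 172, 301 and 208, a rise of 4.37 ± 0.60. These 3 genes showed no overlap between the groups. *EXOSC3*, another cap subunit, had 1843, 266 and 175 in the SCNT4c libraries against 3151, 3354 and 2849.9 in SCNT4c-KG, so library a stood apart from b and c while still lying below all treated libraries. *EXOSC4*, *EXOSC6* and *EXOSC8* rose by 3.95 ± 0.98, 3.75 ± 0.55 and 3.99 ± 0.41 on the log2 scale. *EXOSC4* had 0, 5.24 and 4.98 in SCNT4c and passed the minimum mean only through SCNT4c-KG. It was thus tested here only because that group was higher. The 2 subunits not called were *EXOSC1*, with 482, 603 and 615 and 684, 501 and 938, and *EXOSC9*, with 0.789, 2.62 and 0 and 1.63, 3.81 and 11.4.

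Of the 2 polymerase I factors, *UBTF* was called and *RRN3* was not. *UBTF*, which encodes the upstream binding factor that holds rDNA in an open state, had 633, 367 and 514 in the SCNT4c libraries against 2610.3, 2949 and 1542 in SCNT4c-KG, a rise of 2.21 ± 0.37 (limma adjusted p = 0.00031). *RRN3*, which encodes the factor that brings polymerase I to its promoter, had 1435, 2999 and 2904 and 1460.4, 2086 and 2784, and the groups overlapped, with a log2 difference of -0.19 ± 0.32 (limma adjusted p = 0.673). Among the scaffold genes, *NPM1* had 91619.5, 110217 and 137745 in the SCNT4c libraries against 78352, 78348 and 71978 in SCNT4c-KG, so all treated libraries were lower, but its log2 difference of -0.55 ± 0.21 did not pass (limma adjusted p = 0.0516). *NCL*, which encodes nucleolin, was near 0 in untreated embryos and PFF, with 0, 0.874 and 0.83 in the SCNT4c libraries against 26.1, 20.3 and 22.8 in SCNT4c-KG. It was called higher, but it rests on 2 reads in all of SCNT4c and shares its locus with an assembled transcript.

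Among the small subunit genes, 7 of 11 tested rose and 2 fell. *UTP14A*, which encodes a processome protein, was called with 0, 2.62 and 0 in SCNT4c, 3 reads in all, and 76.8, 88.8 and 94 in SCNT4c-KG. It passed the minimum mean only through SCNT4c-KG, so it was tested here only because that group was higher. *NOP9* rose by 3.15 ± 0.69, from 12.6, 41.1 and 19.1 to 165, 247 and 195. *NOL6* rose by 2.49 ± 0.46, *NOL7* by 2.01 ± 0.29, *RRP9*, a U3 snoRNP protein, by 1.93 ± 0.33, *UTP20* by 2.43 ± 0.75 and *NOL11* by 1.92 ± 0.60. The 2 that fell were *UTP11*, with 14217, 19473 and 21141 in the SCNT4c libraries against 6413, 8360.3 and 8139 in SCNT4c-KG (-1.25 ± 0.23), and *UTP6*, with 1607, 2930 and 3614 and 854, 1198 and 1414 (-1.18 ± 0.37). *UTP11* was the second most abundant of the 41 genes per kb in SCNT4c. The call of *UTP6* was lost without SCNT4c library b, SCNT4c library c or SCNT4c-KG replicate 1, with log2 differences of -1.09, -0.94 and -0.98. That of *NOL11* was lost without SCNT4c library a (1.53), SCNT4c-KG replicate 2 (1.63) or SCNT4c-KG replicate 3 (1.67). That of *UTP20* was lost without the same 3 libraries, at 1.45, 2.41 and 2.01, and with the assembled transcripts of its locus added, at 0.69. With those added, *UTP14A* was at 4.13 against 5.83 alone.

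Of the large subunit genes, 5 of 10 tested rose and none fell. *NOP16* had 1525, 2787 and 3299 in the SCNT4c libraries against 11253, 12999 and 11415 in SCNT4c-KG, a rise of 2.30 ± 0.36. *NOP2*, an rRNA cytosine methyltransferase, rose by 1.57 ± 0.46 and *RRP1B* by 2.36 ± 0.53. The call of *NOP2* was lost without SCNT4c library a (1.04) or SCNT4c-KG replicate 3 (1.38). Within the PES1-BOP1-WDR12 complex, which processes the precursor of the large subunit rRNAs, *PES1* and *BOP1* were called and *WDR12* was not. *PES1* had 0, 0.874 and 1.66 in SCNT4c, 3 reads in all, and 93.1, 234 and 209 in SCNT4c-KG. *BOP1* had 25.2, 0.874 and 4.98 and 84.9, 95.2 and 11.4, with overlapping groups, and a log2 difference of 2.81 ± 1.06 (limma adjusted p = 0.0476). It was called under only 5 of 15 alternatives, with adjusted p up to 0.195, and the call was lost without SCNT4c library b (1.90) or c (2.74) and without SCNT4c-KG replicate 1 (2.38) or 2 (2.30). *WDR12* had 56.8, 76.9 and 58.1 and 13.1, 87.6 and 35.6, also overlapping, and was not called. All 3 share their loci with assembled transcripts.

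**Figure D3:**
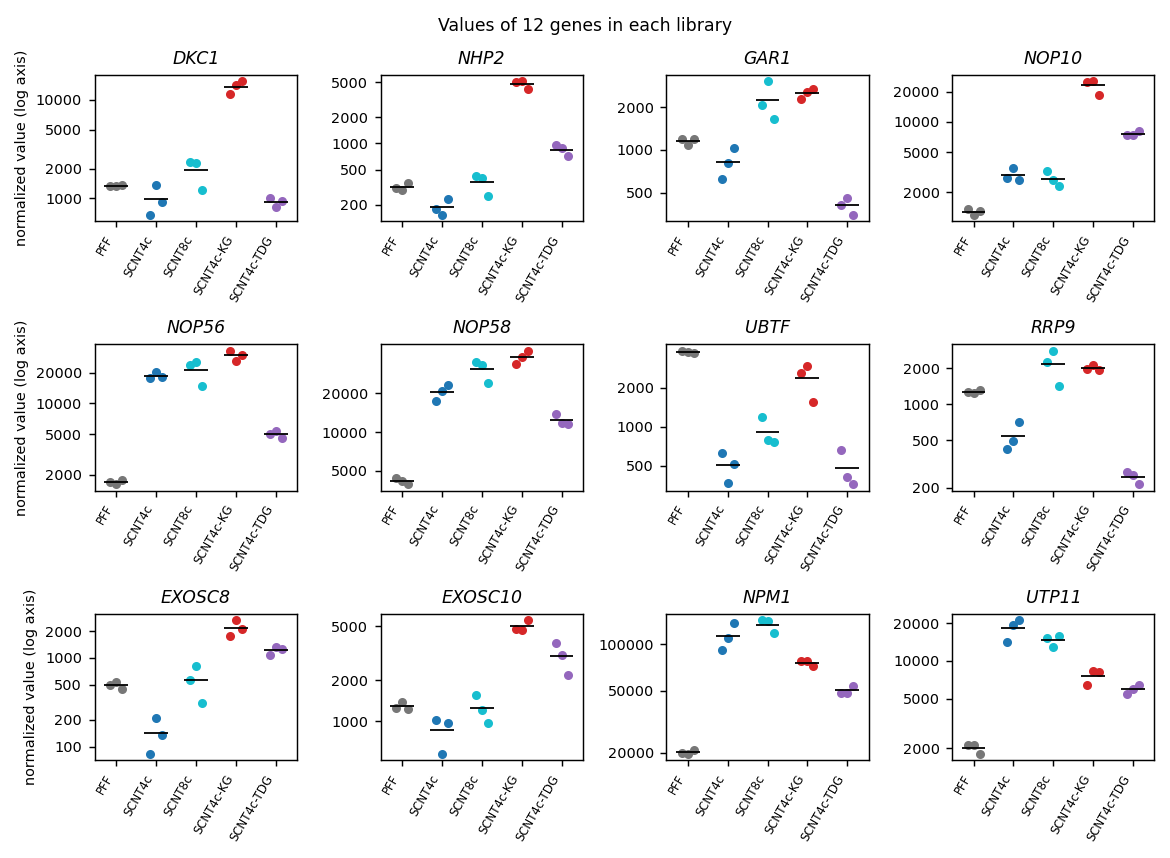
Points are the normalized values of 12 genes in single libraries on log axes, with 3 libraries per group and a line at the group mean. *DKC1* is at 11400 to 15512 in SCNT4c-KG and at 683 to 1363 in SCNT4c, and *NOP56*, *GAR1* and *RRP9* are lower in SCNT4c-TDG than in every other embryo group.

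The second comparison asked the same of SCNT4c-TDG embryos. Here 16 of 41 genes rose and 4 fell, where 15.7% of all features rose and 17.6% fell (33.3% in either direction). Without the 5 genes tested only because of treated embryos, 12 of 36 rose and 4 fell. Of the genes without an assembled transcript at the locus, 6 of 19 rose and 3 fell, with a median log2 difference of -0.07. Of those with one, 10 of 22 rose and 1 fell, with a median of 2.07. The median log2 difference was 0.39 over the 41 genes and -0.26 over all features. SCNT4c-TDG lay wholly above SCNT4c in 19 genes and wholly below in 7, where 25.2% and 33.2% of all features did. When each library was scaled to the same total, the median of all features moved from -0.26 to 0.02, and 17 genes rose and 2 fell (17.9% and 13.9% of all features). Without SCNT4c library a, 8 genes fell (13.0% of all features), and without library c, 2 fell (13.8%).

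Among the exosome genes, 7 of 9 tested subunits were called higher and none lower. *EXOSC10* had 3786, 3075 and 2204 in SCNT4c-TDG, all above the SCNT4c libraries, with a log2 difference of 1.82 ± 0.31 (limma adjusted p = 0.000433). *EXOSC8* had 1075, 1309 and 1262 against 83.6, 208 and 137 in SCNT4c, a rise of 3.17 ± 0.41. *EXOSC2* rose by 3.80 ± 0.60, *EXOSC3* by 2.78 ± 0.60, *EXOSC5* by 3.07 ± 0.51 and *EXOSC6* by 3.07 ± 0.55. *EXOSC9*, a barrel subunit at the edge of detection elsewhere, had 38.5, 48.3 and 32.1 in SCNT4c-TDG and 0.789, 2.62 and 0 in SCNT4c, and a log2 difference of 4.43 ± 0.98 that rests on 4 reads in all of SCNT4c. It reached the minimum mean only through SCNT4c-TDG, so it entered this comparison only because that group was higher.

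The snoRNP genes split. *NHP2* had 948, 884 and 712 in SCNT4c-TDG and rose by 2.19 ± 0.32, and *NOP10* had 7434, 7432 and 8052 and rose by 1.39 ± 0.24. *DKC1* had 1003, 809 and 934, within the range of SCNT4c, and a log2 difference of -0.06 ± 0.33 (limma adjusted p = 0.897). *GAR1* had 411, 459 and 349.7, all below SCNT4c, but its log2 difference of -0.99 ± 0.31 was just inside the fold limit. *NOP56* fell, with 5021, 5433 and 4549.6 in SCNT4c-TDG and 17890, 20309 and 18154 in SCNT4c, a log2 difference of -1.91 ± 0.24 (limma adjusted p = 3.37e-05). *NOP58* had 13893, 11689.8 and 11502 and was lower in every library without passing the fold limit (-0.72 ± 0.23). The median of the 4 H/ACA genes was 0.66 and that of the 2 tested C/D genes was -1.32, with the same signs under the other scalings and count models.

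The other genes that fell were *UTP11*, with 5451, 5936 and 6407 and -1.61 ± 0.23, *NPM1*, with 48346, 48610.1 and 54206 and -1.15 ± 0.21, and *RRP9*, with 273, 254 and 215 and -1.11 ± 0.33. The calls of *NPM1* and *RRP9* were lost with edgeR, with DESeq2, with quantile normalization, with equal totals and without SCNT4c library c (-0.998 and -0.90), and that of *RRP9* also without SCNT4c-TDG replicate 3 (-1.01), while both stayed negative. *UBTF*, with 659.8, 413 and 363, and *RRN3*, with 2086, 2113 and 2122, had log2 differences of -0.09 ± 0.37 and -0.14 ± 0.32 in overlapping groups, and both turned positive with equal totals (0.18 and 0.14). *UTP20*, a large scaffold of the processome, had 331, 349.8 and 334 in SCNT4c-TDG and 5.52, 55.1 and 44.8 in SCNT4c and rose by 3.73 ± 0.75, or by 1.95 with the assembled transcripts of its locus added. *NOP16* had 10177, 10566 and 7638 and rose by 1.96 ± 0.36. *NCL* had 87.8, 49.9 and 62.7, the highest values of that gene in any group, and *PES1* had 24.3, 27.6 and 32.1. Both were called against SCNT4c values of under 2, and *NCL* passed the minimum mean only through SCNT4c-TDG.

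**Figure D4:**
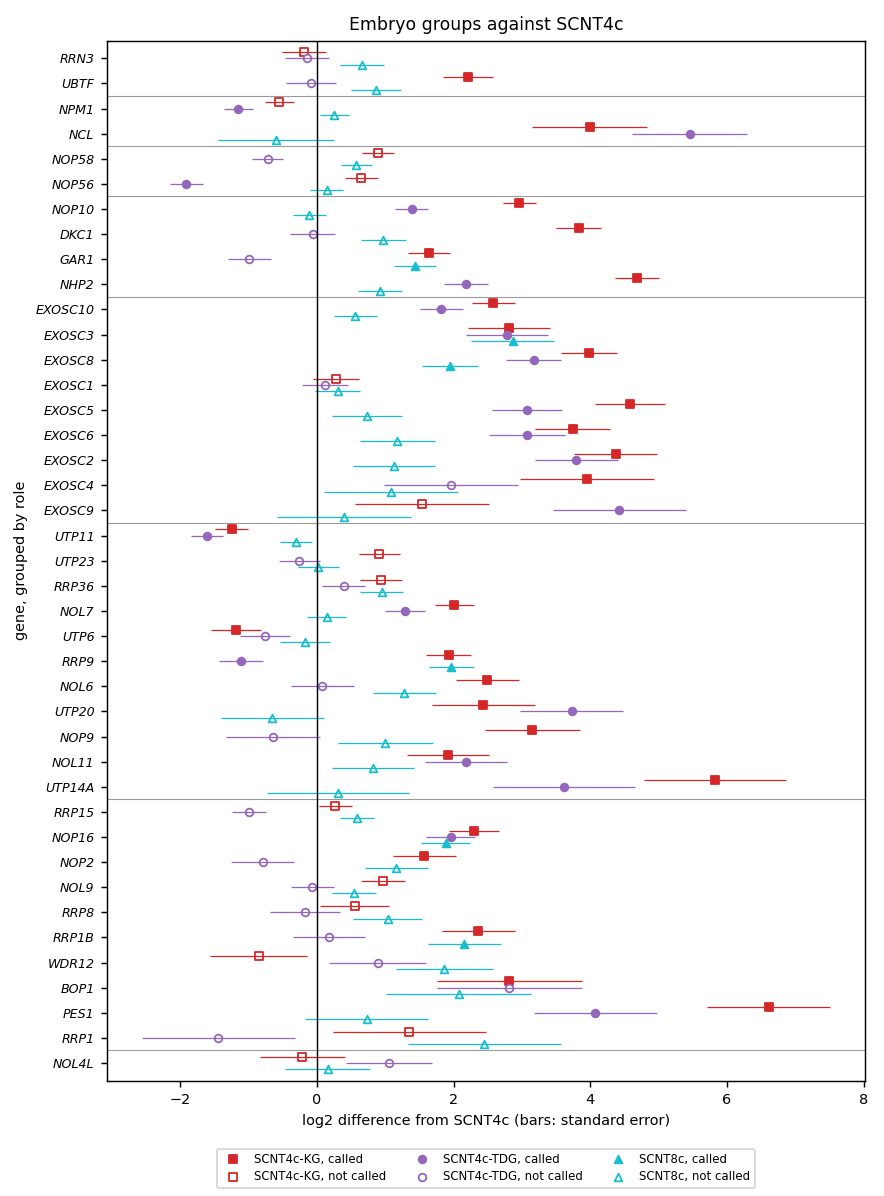
Each row is a gene and each marker its log2 difference from SCNT4c in limma with its standard error, for SCNT4c-KG (squares), SCNT4c-TDG (circles) and SCNT8c (triangles), with filled markers for called differences. Exosome rows have both treated groups to the right, whereas *DKC1* is at 3.83 in SCNT4c-KG and -0.06 in SCNT4c-TDG. The 3 comparisons share the SCNT4c libraries.

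The treated groups were then compared with each other directly. No gene was called higher and 15 of 41 were lower in SCNT4c-TDG than in SCNT4c-KG, where 7.07% of all features were higher and 9.13% lower (16.2% in either direction). At an unadjusted limma p under 0.05, 2 genes were higher and 21 lower. Neither edgeR nor DESeq2 called a gene higher, and they called 12 and 16 lower, where edgeR called 7.98% of all features higher and 5.76% lower and DESeq2 10.1% and 10.8%. The median log2 difference was -0.81 over the 41 genes and -0.02 over all features, and with equal totals these became -0.45 and 0.34. SCNT4c-TDG lay wholly below SCNT4c-KG in 29 genes and wholly above in 4, where 24.6% and 19.8% of all features did. The genes without an assembled transcript at the locus gave 10 lower and 0 higher of 19 by limma.

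All 6 tested snoRNP genes were lower in SCNT4c-TDG. The log2 difference was -3.89 ± 0.33 for *DKC1* (limma adjusted p = 7.04e-06), -2.63 ± 0.31 for *GAR1*, -2.50 ± 0.32 for *NHP2* and -1.58 ± 0.24 for *NOP10*. For the box C/D genes it was -2.56 ± 0.24 for *NOP56* (limma adjusted p = 1.54e-05) and -1.62 ± 0.23 for *NOP58*. *DKC1*, *GAR1*, *NHP2*, *NOP56* and *NOP58* were called under all 18 alternatives in which they were fitted and *NOP10* under 17 of 18, the exception being quantile normalization. In all 6 genes the libraries of the 2 groups did not overlap.

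None of the 9 exosome genes was called in limma, with 1 higher and 2 lower at an unadjusted p under 0.05. They still leaned lower in SCNT4c-TDG, with only 1 of the 9 log2 differences above 0. The median was -0.67, against -0.81 over the 41 genes. edgeR also called none, DESeq2 called *EXOSC5* lower, and quantile normalization and equal totals each called *EXOSC9* higher. Over all alternatives *EXOSC9* was called higher in 5 of 15 (including without SCNT4c-KG replicate 3, at 3.495), *EXOSC5* lower in 4 of 18 and *EXOSC4* lower in 2 of 17. Their log2 differences ranged from -1.99 for *EXOSC4* to 2.89 for *EXOSC9*, both genes of low values, and that of *EXOSC10* was -0.76 ± 0.31 (limma adjusted p = 0.113). The difference between the exosome and the snoRNP genes was not itself tested. *UBTF* was lower, with a log2 difference of -2.30 ± 0.37 (limma adjusted p = 0.000777), with 1542 to 2949 in SCNT4c-KG and 363 to 660 in SCNT4c-TDG, and *RRN3* differed by 0.05 ± 0.32 in overlapping groups. Among processome genes, *RRP9*, *NOP9*, *NOL6* and *UTP23* were lower, with log2 differences of -3.04 ± 0.33, -3.79 ± 0.69, -2.41 ± 0.46 and -1.17 ± 0.30. The first 3 were called under all 18 alternatives and *UTP23* under 12, its call being lost with edgeR, quantile normalization and equal totals and without SCNT4c-KG replicate 2 (-1.02) or SCNT4c-TDG replicate 1 (-1.12) or 2 (-1.13). Among large subunit genes, *NOP2*, *RRP1B*, *RRP15* and *NOL9* were lower, with log2 differences of -2.36 ± 0.46, -2.18 ± 0.53, -1.26 ± 0.24 and -1.04 ± 0.32. *NOP2* was called under all 18 alternatives, *RRP1B* under 16 (not without SCNT4c-KG replicate 2, at -1.998, or SCNT4c-TDG replicate 2, at -2.02) and *RRP15* under 15 (not with edgeR, quantile normalization or equal totals). *NOL9* was called under only 6, with adjusted p up to 0.202, and its call was lost without SCNT4c-KG replicate 2 (-0.88) or 3 (-0.93) or any of the SCNT4c-TDG replicates (-1.10, -1.08 and -0.93). *NOP16*, in contrast, had 11253, 12999 and 11415 in SCNT4c-KG and 10177, 10566 and 7638 in SCNT4c-TDG, and was not called. With a pseudocount of 10 or a fit of these 2 groups alone, 2 genes were higher and 19 lower, where 7.93% and 11.3% of all features were with the pseudocount and 11.4% and 16.1% in the fit of 2 groups.

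The third comparison asked how these genes differed between untreated 8-cell and 4-cell embryos. By limma 6 genes rose and 0 fell, where 2.62% of all features rose and 3.16% fell (5.79% in either direction), and 17 were higher and 0 lower at an unadjusted p under 0.05. edgeR called 6 higher and 0 lower (3.48% and 1.08% of all features), and DESeq2 13 and 0 (10.4% and 4.07%). The log2 difference was above 0 in 36 of 41 genes, with a median of 0.82 (0.84 without *NCL*, which was listed at 0 in all SCNT8c libraries) against -0.31 over all features. SCNT8c lay wholly above SCNT4c in 14 genes and wholly below in 0, where 9.24% and 14.3% of all features did. The count of 6 depended on single libraries. It was 15 without SCNT8c replicate 3, where 12.4% of all features rose and 19.9% fell, 3 without SCNT4c library a or c (0.598% and 0.817% of all features rose), 1 without SCNT8c replicate 2 (0.0685%), and 0 without SCNT8c replicate 1, without SCNT4c library b or in a fit of the 2 groups alone, where 0 of 18184 features passed and 3582 had an unadjusted p under 0.05.

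*RRP9* had values of 425, 495 and 715 in the SCNT4c libraries against 2255, 2816 and 1422 in SCNT8c, a rise of 1.97 ± 0.33 (limma adjusted p = 0.0144). *NOP16* had 12212, 12028 and 4802 in SCNT8c and rose by 1.88 ± 0.36. *GAR1* had 2077, 3042 and 1636 and rose by 1.44 ± 0.31, the only one of the 4 box H/ACA genes called by limma. DESeq2 also called *DKC1* (1.23) and *NHP2* (1.20), and so did limma without SCNT8c replicate 3 (1.28 and 1.16). In *RRP9*, *NOP16* and *GAR1* replicate 3 was the lowest SCNT8c library and still lay above all SCNT4c libraries. *EXOSC3* had 4017, 3325 and 2497, *EXOSC8* 569, 805 and 307 and *RRP1B* 548, 752 and 334, with rises of 2.86 ± 0.60, 1.95 ± 0.41 and 2.16 ± 0.53. *DKC1* had 2347, 2274 and 1223 and was not called by limma with all libraries (0.97 ± 0.33; limma adjusted p = 0.0785), with replicate 3 inside the range of SCNT4c. All 10 tested genes of large subunit maturation had a log2 difference above 0, with a median of 1.51.

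The last comparison set SCNT4c against the donor cells. Of 39 genes, 10 were higher and 16 lower in SCNT4c, where 39.7% of all features were higher and 38.5% lower (78.2% in either direction). The share of genes called in either direction, 66.7%, was below that of all features. With no minimum mean this order turned, at 64.4% against 55.1% of all features. SCNT4c lay wholly above PFF in 11 genes and wholly below in 21, where 42.4% and 42.1% of all features did. The direction of the counts depended on the scaling. The median of all features was 0.07 as deposited and 0.86 with equal totals, where 14 genes were higher and 13 lower, and DESeq2 on recovered reads gave 16 and 11. All features moved likewise, to 45.7% higher and 32.5% lower with equal totals and 47.1% and 31.2% with DESeq2. *EXOSC4*, *NOL12*, *PES1* and *RRP1* reached the minimum mean only through PFF, and without them 10 of 35 were higher and 12 lower. Among genes without an assembled transcript at the locus, 8 of 19 were higher and 4 lower, with a median log2 difference of 0.61. Among the 20 tested genes with one, 2 were higher and 12 lower, with a median of -2.79.

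Both tested box C/D genes were higher in embryos. *NOP56* had 1683, 1621 and 1779 in PFF and rose by 3.47 ± 0.09 to the SCNT4c values given above (limma adjusted p = 8.08e-07). *NOP58* had 4417, 4200.4 and 3952 in PFF and rose by 2.28 ± 0.12. *UTP11* with 2119.5, 2112 and 1812 in PFF, *UTP23* with 517, 639 and 507, *NPM1* with 20053, 19732 and 20955 and *RRP15* with 2047, 1910.4 and 1993 rose by 3.16 ± 0.17, 3.19 ± 0.24, 2.46 ± 0.14 and 2.28 ± 0.20. These 6 genes were called under all 15 alternatives. *NOP10*, at 1365, 1198 and 1288 in PFF, was the only box H/ACA gene called (1.19 ± 0.15), and the median of the 4 changed sign from -0.51 to 0.12 with equal totals.

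The lower genes included the whole PES1-BOP1-WDR12 complex. *BOP1* had 915, 956 and 871 in the PFF libraries against 25.2, 0.874 and 4.98 in SCNT4c, a log2 difference of -7.10 ± 0.92 (limma adjusted p = 0.000494). *WDR12* had 1299, 1159 and 1069 in PFF and was lower, with a log2 difference of -4.19 ± 0.20 that shrank to -1.23 when the assembled transcripts of its locus were added, and *PES1* had 30.5, 42 and 44.1, against 3 reads in all of SCNT4c. *UBTF* had 3852, 3765 and 3684 in PFF and was lower, with a log2 difference of -2.93 ± 0.21 (limma adjusted p = 3.42e-05), while *RRN3* had 1899.6, 1938 and 1773 in a range that overlapped with SCNT4c. *NOL12*, with 61.1, 44.6 and 56 in the PFF libraries against 10.3, 0 and 0 in SCNT4c, and *NOL4L*, with 1052, 956 and 1045, were also among the 5 largest falls. The annotated position of *NOL4L* lies outside the locus that the table gives it. None of the 8 tested exosome subunits was called higher by limma on the deposited values, with 1 at an unadjusted p under 0.05, and 4 were lower, namely *EXOSC2*, *EXOSC4*, *EXOSC6* and *EXOSC8*. The calls of *EXOSC4* and *EXOSC6* were lost with edgeR and DESeq2, that of *EXOSC4* also with a pseudocount of 0.1, and that of *EXOSC8* with quantile normalization. limma called *EXOSC1* (1.39) and *EXOSC5* (1.31) higher with equal totals and *EXOSC1* (1.70) with quantile normalization. edgeR called 1 exosome subunit higher and 2 lower, and DESeq2 3 higher and 2 lower.

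**Figure D5:**
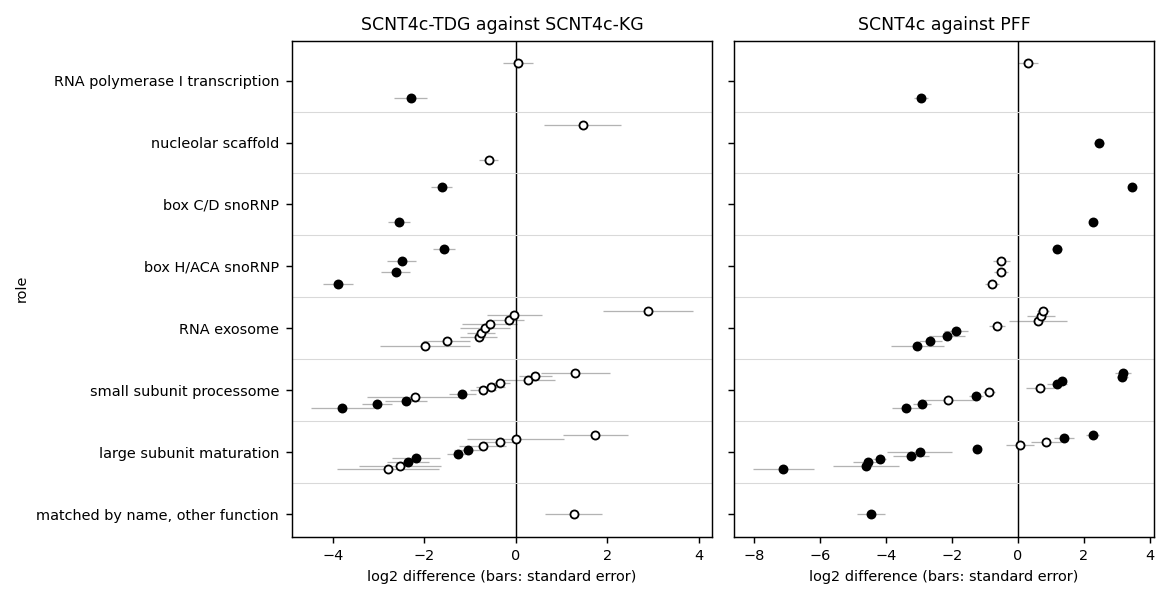
Points are log2 differences of single genes with standard errors from limma, sorted by role, for SCNT4c-TDG against SCNT4c-KG (left) and SCNT4c against PFF (right), with filled points for called differences. On the left the 6 snoRNP genes lie between -3.89 and -1.58 and are all called. The exosome genes are not called, and 1 of 9 lies above 0. On the right the 2 tested box C/D genes are at 2.28 and 3.47.

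A list of 124 other ribosome biogenesis genes in the table, outside the symbol rule, was counted in the same fits by limma. In SCNT4c-KG, 67 of 104 tested rose and 5 fell, beside 17.6% and 19.6% of all features. The rises comprised 13 of 15 genes of the RNA polymerase I machinery, 23 of 40 large subunit factors, 19 of 32 small subunit factors, 9 of 12 exosome cofactors and other nucleases and 3 of 5 snoRNP assembly factors. In SCNT4c-TDG, 44 of 104 rose and 9 fell, beside 15.7% and 17.6% of all features. Of the polymerase I genes 8 rose and 1 fell there, of the large subunit factors 14 and 3, of the small subunit factors 15 and 3, of the exosome cofactors 6 and 0, and of the snoRNP assembly factors 1 and 2. Against SCNT4c-KG, SCNT4c-TDG had 3 higher and 38 lower, beside 7.07% and 9.13% of all features. There edgeR called 5 higher and 25 lower (7.98% and 5.76% of all features) and DESeq2 4 and 37 (10.1% and 10.8%). The lower ones by limma were 7 polymerase I genes (2 by edgeR and 6 by DESeq2), 16 large and 11 small subunit factors (12 and 8 by edgeR), 2 exosome cofactors and 2 snoRNP assembly factors. In SCNT8c, 12 rose and 1 fell, beside 2.62% and 3.16% of all features, where edgeR called 17 higher and 0 lower and DESeq2 36 and 0 (4.56% and 14.4% of all features in either direction). There none of the 15 polymerase I genes was called by limma, with 2 higher at an unadjusted p under 0.05 and 1 called higher by edgeR and by DESeq2. Between SCNT4c and PFF, 27 of 100 were higher and 33 lower in SCNT4c, beside 39.7% and 38.5% of all features. The split turned with the count models, edgeR giving 37 higher and 25 lower (44.8% and 32.1% of all features) and DESeq2 42 and 24 (47.1% and 31.2%). The median log2 differences of this list were 1.74 in SCNT4c-KG, 0.89 in SCNT4c-TDG, -0.84 in SCNT4c-TDG against SCNT4c-KG, 0.71 in SCNT8c and -0.33 in SCNT4c against PFF.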

How the data were processed

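The authors made the 15 libraries from PFF and from pools of 30 embryos and sequenced them as paired reads. Per the labels and the study's methods, reads were processed with CASAVA 1.8.2 and Trimmomatic 0.39, aligned to Sscrofa11.1 with STAR 2.5.3a with uniquely mapped reads kept, assembled with StringTie 2.1.2 and counted with HTSeq. The deposited values are a normalized signal, that is, counts that each library's own factor had divided, and the strand setting and the source of the factor are not given in the sources used here. In every library all values were whole multiples of 1 read (tolerance 0.01 reads), which gave the recovered reads. Of 43535 entries, 241 repeated ones were removed.

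A feature whose mean in the fitted libraries reached 10 was tested on log2(value + 1) with limma 3.58.1 (R 4.3.3) and an intensity trend, and p-values were adjusted by Benjamini-Hochberg over all features tested. Fold changes on this scale understate those of low values. The 12 embryo libraries were fitted together, and SCNT4c and PFF in a fit of 6 libraries. Calls required a fold above 2 beside an adjusted p under 0.05. With 3 against 3 libraries an exact permutation test cannot give a two-sided p below 0.1, so it was not used for calls. The limma function with its main settings was also run on simulated reads, for SCNT4c-KG against SCNT4c only. Its other settings were not tested in this way.

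The 56 genes, the role groups, the list of other ribosome biogenesis genes and the marker lists were chosen with earlier results of these data known. Named genes are *UBTF*, *RRN3*, *FBL*, *NCL*, *NPM1* and *DKC1*, the highest and lowest gene of each role group, the 5 largest called rises and falls of each comparison, and all members of the 4 complexes. Others were named after their values were seen, to account for counts.

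Alternatives were pseudocounts of 0.1 and 10, no minimum (all features above 0), a minimum of 50, quantile normalization, equal library totals, edgeR 4.0.16 and DESeq2 1.42.0 on recovered reads, no fold limit, a fit of only the 2 groups, the sum of a gene and the assembled transcripts of its locus, each library left out in turn, and a replicate block. Added after seeing the data were counts over genes without an assembled transcript at the locus, and the libraries of the block fitted without it. Replicate numbers shared by SCNT8c, SCNT4c-KG and SCNT4c-TDG were checked for pairing. All 56 genes matched the RefSeq annotation of Sscrofa11.1 by symbol, 55 of them inside the locus in the table (not *NOL4L*), which gave positions, exonic lengths and promoters. Python 3.11.15, numpy 2.4.6, pandas 2.3.3 and matplotlib 3.10.9 were used.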

Additional observations from a re-analysis of the deposited data

How the results depend on the processing

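Over the 41 genes, the count of rises in SCNT4c-KG ranged from 21 to 30 and in SCNT4c-TDG from 13 to 17 over all alternatives but the one on assembled transcripts (the lowest, 21 and 13, with a minimum of 50, which left 35 genes), and the count of genes lower in SCNT4c-TDG than in SCNT4c-KG from 12 to 19. Each library left out in turn gave 1 to 2 falls in SCNT4c-KG (1 without SCNT4c library b, SCNT4c library c or SCNT4c-KG replicate 1), 2 to 8 falls in SCNT4c-TDG, 0 to 15 rises in SCNT8c and 0 to 1 genes higher in SCNT4c-TDG than in SCNT4c-KG. The count of falls in SCNT4c-TDG was 2 with edgeR, DESeq2, quantile normalization or equal totals, 7 with no fold limit and 8 with assembled transcripts of the locus added. The count of rises in SCNT8c was 13 with DESeq2 and 0 in a fit of the 2 groups alone. In SCNT4c-TDG against SCNT4c-KG, 2 genes were higher with a pseudocount of 10 or in a fit of the 2 groups alone, and 1 with quantile normalization or equal totals. Against PFF, 16 genes were higher in SCNT4c with DESeq2. Over the 19 genes without an assembled transcript, 11 rose and 1 fell in SCNT4c-KG, and 6 rose and 3 fell in SCNT4c-TDG. Against PFF, 8 of them were higher and 4 lower in SCNT4c. The medians also differed, at 0.61 over these 19 genes and -2.79 over the 20 with an assembled transcript against PFF. The smaller number of genes does not account for this. The causes of these differences were not tested.

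Among 56 named differences, 25 of the recomputed values changed sign, all of differences that had not been called. In SCNT4c-TDG against SCNT4c, *DKC1* was at 0.16 with DESeq2, 0.18 with edgeR, 0.087 with quantile normalization and 0.21 with equal totals, *RRN3* at 0.056, 0.072 and 0.14 with DESeq2, edgeR and equal totals, and *UBTF* at 0.22, 0.24, 0.14 and 0.18 in the order of *DKC1*. With each library left out in turn, these ranged from -0.30 to 0.20 for *DKC1*, from -0.49 to 0.046 for *RRN3* and from -0.35 to 0.090 for *UBTF*. With libraries left out likewise, *RRN3* ranged from -0.53 to 0.055 in SCNT4c-KG against SCNT4c and from -0.19 to 0.27 in SCNT4c-TDG against SCNT4c-KG. With quantile normalization *NCL* was at 0.10 in SCNT8c against SCNT4c and *NPM1* at 0.021 in SCNT4c-TDG against SCNT4c-KG. Against PFF, *DKC1* in SCNT4c was at 0.32 with DESeq2, 0.13 with edgeR, 0.42 with quantile normalization and 0.12 with equal totals.

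Libraries with the same replicate number in SCNT8c, SCNT4c-KG and SCNT4c-TDG deviated from their group means with correlations of -0.061 to 0.196, and 7 of 18 library and group pairs correlated best with their own number, and no pairing was assumed. A replicate block in a fit of these 9 libraries gave 0 genes higher and 14 lower in SCNT4c-TDG than in SCNT4c-KG, as did the same libraries without the block. No paired analysis was possible for the comparisons with SCNT4c because the labels number its samples and columns in conflicting ways. Depth limits *PES1*, *UTP14A*, *NCL* and *EXOSC9*, which rest on 2 to 4 reads in all of SCNT4c, and 11 of the 56 genes, which had at most 3 reads in any library.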
